A study of Mus musculus with 3 samples.

Results

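The killer cell lectin-like receptor (Klr) family was taken as every gene symbol of the skin libraries that starts with Klr, a lower-case letter and a digit. The rule used no measured value and found 27 members among the 31253 genes listed. At least 1 unique molecular identifier (UMI, which stands for 1 captured mRNA molecule) was counted for 26 members over both skin libraries, and at least 20 UMIs for 23. Klrh1 had no UMI, Klra10 had 3, Klrc3 had 6 and Klrb1 had 14. The skin RHS library held cells selected with CD45 beads, which bind leukocytes, from the skin of mice given both RHS and MC903. Cells selected in the same way from mice given MC903 alone made up the skin control library. MC903 is calcipotriol, a vitamin D analogue that causes an eczema-like inflammation of mouse skin, and both groups received it. RHS is written here as the labels write it, without an expansion. For the skin libraries, no source used here gave the strain, the age or how many mice were used. The labels' protocol also names EtOH-treated mice, and no library labelled so was analysed here. There was 1 library per group, so no difference has a replicate check and no test was made. Intervals cover counting error only, and PCR copies are removed only as far as the UMIs allow.

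Klr proteins are C-type lectin-like receptors of natural killer (NK) cells and other leukocytes, and most of their genes lie together in the NK gene complex on mouse chromosome 6. The Klra members are the Ly49 receptors, most of which bind classical MHC class I molecules and which are inhibitory or activating. CD94, the product of Klrd1, forms a pair with NKG2A (Klrc1) or NKG2C (Klrc2) and binds Qa-1, a non-classical MHC class I molecule. NKG2D (Klrk1) binds MHC-like ligands of stressed cells and signals through the adaptor DAP10 (Hcst). The NKR-P1 receptors (Klrb1 members) bind Clec2 proteins, and KLRG1 (Klrg1) binds cadherins. The Ly49 gene content differs between inbred mouse strains, and counts were made against the mouse reference genome, so a value is that of the reference gene the reads were given to.

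Promoter sequence was set beside the expression of 5 members because their cells differ: Klra4 and Klra8 were Ly49 genes of Gzma-rich NK-like cells, Klra7 was also a gene of Cd3e-bearing NK-like cells, Klra2 was a Ly49 gene of myeloid cells, and Klrb1b was found in NK-like and dendritic-like cells. Each run is the 250 bases before a RefSeq start site, read 5′ to 3′ on the minus strand of chromosome 6 in GRCm38.p6, which is an older build than the GRCm39 that the submitters' processing notes name. The positions are chr6:130067272-130067521 for Klra4, chr6:130129899-130130148 for Klra8, chr6:130233323-130233572 for Klra7, chr6:131247363-131247612 for Klra2 and chr6:128826316-128826565 for Klrb1b. Capitals mark an 11-base run shared by Klra promoters in Klra4, Klra8 and Klra2, and the ETS core AGGAAG on either strand in Klrb1b.
Klra4: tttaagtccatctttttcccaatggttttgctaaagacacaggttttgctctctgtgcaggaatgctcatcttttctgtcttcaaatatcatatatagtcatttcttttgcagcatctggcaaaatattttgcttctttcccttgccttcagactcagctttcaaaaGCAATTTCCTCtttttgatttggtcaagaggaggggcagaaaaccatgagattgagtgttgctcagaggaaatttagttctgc
Klra8: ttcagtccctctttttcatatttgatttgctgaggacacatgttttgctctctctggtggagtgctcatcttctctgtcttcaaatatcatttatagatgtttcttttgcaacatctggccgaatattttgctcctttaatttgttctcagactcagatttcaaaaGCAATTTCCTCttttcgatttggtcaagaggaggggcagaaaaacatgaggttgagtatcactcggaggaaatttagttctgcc
Klra7: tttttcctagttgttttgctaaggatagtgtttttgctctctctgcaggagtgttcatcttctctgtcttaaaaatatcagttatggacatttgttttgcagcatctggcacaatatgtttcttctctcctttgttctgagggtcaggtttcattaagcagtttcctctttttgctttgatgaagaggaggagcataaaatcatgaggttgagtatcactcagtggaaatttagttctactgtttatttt
Klra2: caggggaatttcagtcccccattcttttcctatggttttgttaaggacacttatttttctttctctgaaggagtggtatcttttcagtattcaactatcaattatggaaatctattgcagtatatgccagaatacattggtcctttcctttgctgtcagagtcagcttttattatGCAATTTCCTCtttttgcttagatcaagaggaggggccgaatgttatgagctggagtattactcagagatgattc
Klrb1b: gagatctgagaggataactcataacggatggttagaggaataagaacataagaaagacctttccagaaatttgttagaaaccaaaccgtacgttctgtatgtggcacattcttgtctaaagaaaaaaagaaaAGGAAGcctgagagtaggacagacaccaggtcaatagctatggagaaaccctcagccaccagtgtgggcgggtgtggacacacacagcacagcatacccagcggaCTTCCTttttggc
The run GCAATTTCCTC, the longest that at least 8 Klra members share, was present in the windows of 8 of 11 Klra members and in 5 of 32822 windows of other genes. It began at -83 in Klra4, at -84 in Klra8 and at -75 in Klra2, counted from the start site. The windows of Klra1, Klra7 and Klra10 held no exact copy. Only exact copies were searched, and the Klra7 window holds gcagtttcctc, which differs from the run by a single base. The myeloid gene Klra2 and the NK genes Klra4 and Klra8 thus hold the same 11 letters. The upstream windows of Klra4 and Klra8 were identical at 85.1% of aligned bases, those of Klra4 and Klra7 at 80.8%, and those of Klra4 and Klra2 at 74.7%. Klra3 and Klra9 had the pair of windows with the highest identity among the 6 Klra windows compared, 95.7%.

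Over the family, 24 of 27 members had a promoter window, 29 windows in all, and letters were searched on both strands. The ETS core AGGAAG stood in 10 of 29 Klr windows, in 2 of 13 Klra windows and in 29.5% of all 32851 windows. The RUNX core TGTGGT stood in 9 Klr windows, against 14.05% of all windows, among them those of Klrk1, Klre1, Klrc1, Klrc2 and Klrb1c. The TATA letters TATAAA stood in 8 of 13 Klra windows, against 12.4% of all windows. The AP-1 letters TGANTCA stood in 0 of 29 Klr windows and in 6.75% of all windows, the GATA letters AGATAA in 3 Klr windows and in 9.99% of all, and the T-box letters AGGTGT in 2 Klr windows and in 11.8% of all. None of these full sets of letters contains another or is part of the 11-base run. The run does hold TTCCT, which reads AGGAA on the other strand, the ETS letters without their last G. Shorter forms of a motif were not searched, so the counts hold for the full letters alone. A match describes the letters of a window, not a site in use.

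After filters, 12983 skin RHS cells with a median of 3104 UMIs and 12615 skin control cells with a median of 3238 UMIs were kept. The libraries shared 5 cell barcodes. Cells were grouped without any Klr gene among the clustering genes or the markers, and a group called X-like was named from markers of that cell type. Some cells were non-immune in spite of the CD45 selection, 1701 in skin RHS and 2308 in skin control. The skin RHS library held 1352 CD8 T-like cells, against 445 in skin control, and 325 gamma-delta T-like cells, against 828. Levels are summed counts of a class scaled by its total UMIs (CPM), with no correction for gene length or for how well a gene is captured, so they are compared within a gene.

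The family made up 12711 UMIs or 246 CPM in skin RHS and 11888 UMIs or 221 CPM in skin control. Lymphoid clusters held 54.7% of these UMIs in skin RHS and 50.7% in skin control, and 3559 and 3059 of the kept cells. Myeloid clusters held 43.8% and 46.7%, and non-immune clusters 1.03% and 2.20%. Among groups with at least 50 cells in each library, the summed family was highest in NK-like cells, at 3480 CPM in skin RHS and 3460.5 CPM in skin control. CD8 T-like cells followed with 1092 and 1187 CPM, then the cycling cluster led by Mki67 and Gzma with 797 and 789 CPM. Lower sums were found in type 1 dendritic-like cells at 580.1 CPM in skin RHS and 732 CPM in skin control, type 2 dendritic-like cells at 481 and 474 CPM, and regulatory T-like cells at 338 and 354 CPM. Macrophage-like cells were low, at 38.6 and 42.9 CPM, and keratinocyte-like cells lower, at 17.5 and 17.4 CPM. The counting interval of the skin RHS over skin control ratio of the family sum was 0.94 to 1.07 in NK-like cells around a ratio of 1.01. In migratory dendritic-like cells the ratio was 1.59 (1.32 to 1.90), in type 1 dendritic-like cells 0.79 (0.72 to 0.87) and in innate lymphoid type 2 (ILC2)-like cells 0.68 (0.52 to 0.89).

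**Figure D1:**
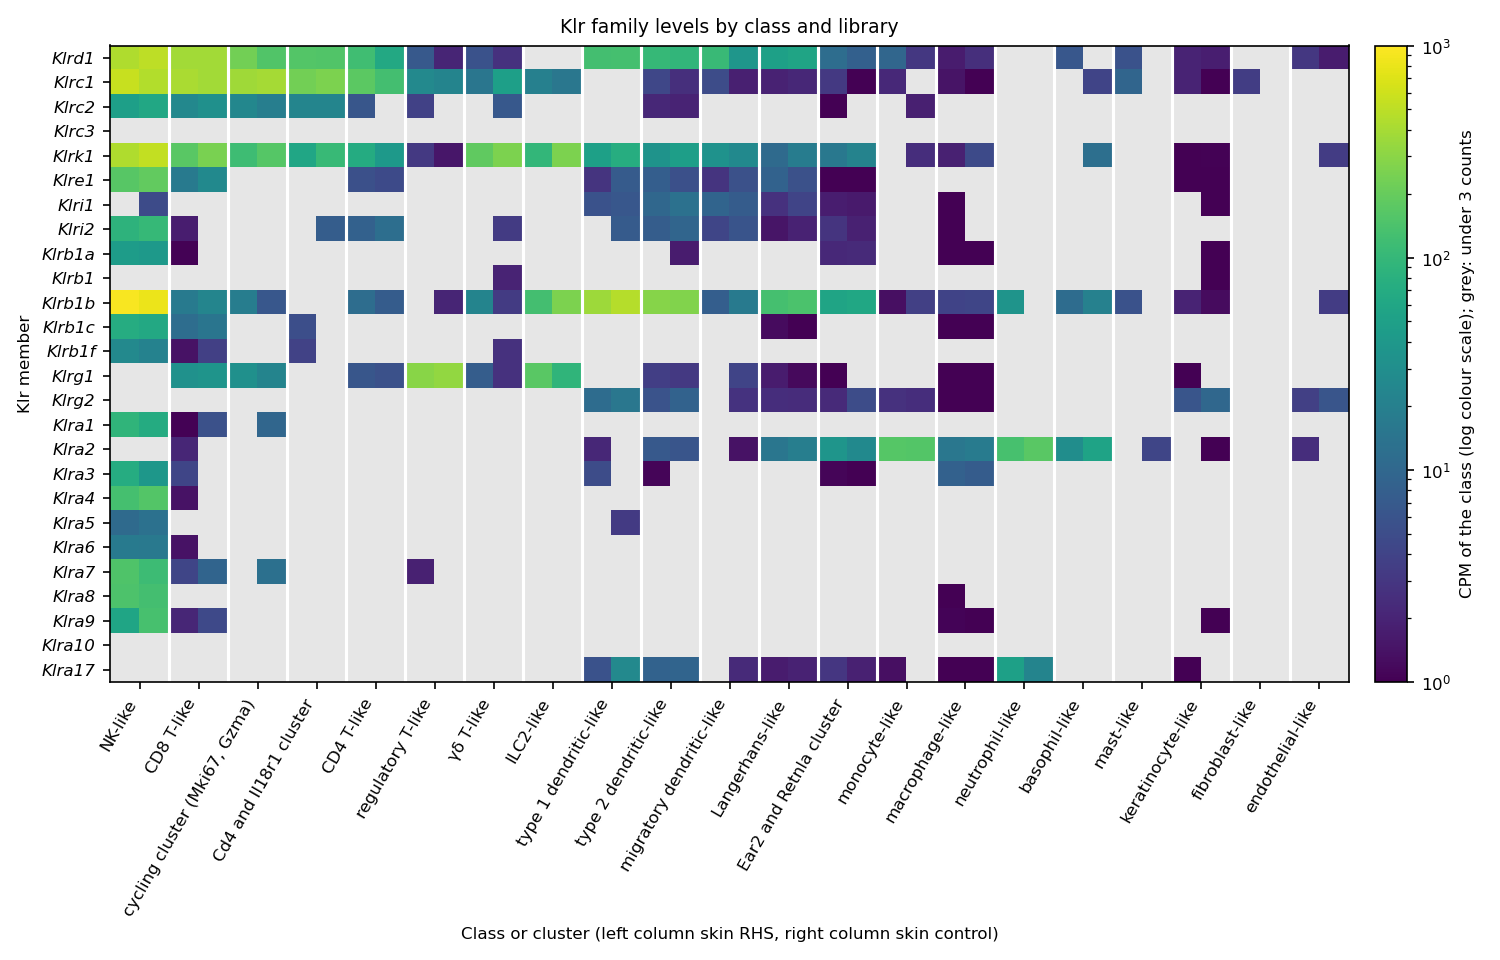
Level of each of the Klr members with a UMI (rows) by class and cluster (columns, skin RHS left and skin control right in each pair), as CPM on a log colour scale, with grey for under 3 counts. Most Klra members have colour in NK-like cells, Klra2 in monocyte-like and neutrophil-like cells, Klrg1 in regulatory T-like and ILC2-like cells, and Klrb1b in NK-like and dendritic-like cells.

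Klrd1 (CD94) was counted in NK-like cells at 438 CPM in skin RHS and 500.2 CPM in skin control, and in CD8 T-like cells at 381 and 388 CPM. The skin RHS over skin control ratio was 0.88 (0.73 to 1.05) in NK-like and 0.98 (0.88 to 1.10) in CD8 T-like cells, and both intervals include 1. A Klrd1 UMI was found in 54.6% of skin RHS and 68.8% of skin control NK-like cells, or 32.1% and 40.7% after each cell was thinned to 1000 UMIs. Klrd1 was also counted in myeloid classes, at 102 CPM in skin RHS and 94.8 CPM in skin control type 2 dendritic-like cells and at 50.1 and 56.7 CPM in Langerhans-like cells. Of the type 2 dendritic-like cells, 27.1% had a Klrd1 UMI in skin RHS and 23.7% in skin control, and after thinning 10.4% and 8.41% did. Keratinocyte-like cells, which should lack the gene, gave 0.98% and 0.70%, or 0.16% and 0.24% thinned, at median depths of 5843 and 6668 UMIs, against 5070 and 5472 UMIs in type 2 dendritic-like cells.

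Klrc1 (NKG2A), the inhibitory partner of CD94, was counted near or above the level of Klrd1 in lymphoid groups with at least 20 Klrd1 counts. In dendritic-like and Langerhans-like classes it was counted at a small part of the Klrd1 level. Its level in NK-like cells was 555 CPM in skin RHS and 446 CPM in skin control, a ratio of 1.24 (1.04 to 1.48), and in CD8 T-like cells 413 and 387 CPM, a ratio of 1.07 (0.96 to 1.20). There were 1.27 (1.05 to 1.53) Klrc1 counts per Klrd1 count in skin RHS NK-like cells and 0.89 (0.76 to 1.05) in skin control. In CD8 T-like cells the ratio was 1.09 in skin RHS and 0.995 in skin control. It was higher in CD4 T-like cells, at 1.49 and 1.91, and in the cycling cluster, at 1.60 and 2.58. In dendritic-like and Langerhans-like classes it was far lower: 0.043 (0.022 to 0.076) and 0.027 (0.012 to 0.052) in type 2 dendritic-like cells and 0.039 and 0.038 in Langerhans-like cells, in skin RHS and skin control. The counting intervals of these lymphoid and dendritic-like ratios do not overlap in either library. In the Ear2 and Retnla cluster it was between these, at 0.27 (0.17 to 0.40) in skin RHS and 0.097 (0.034 to 0.22) in skin control, and in skin RHS monocyte-like cells it was 0.23 (0.067 to 0.62). The T cell gene Cd3g had 35 and 32 counts in type 2 dendritic-like cells, against 282 and 335 Klrd1 counts, and its part in the myeloid Klrd1 was not tested. Klrc1 and Klrc2 share 8.51% and 6.66% of the 75-base words near their transcript ends with other members, so their counts may be partly split between them.

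**Figure D2:**
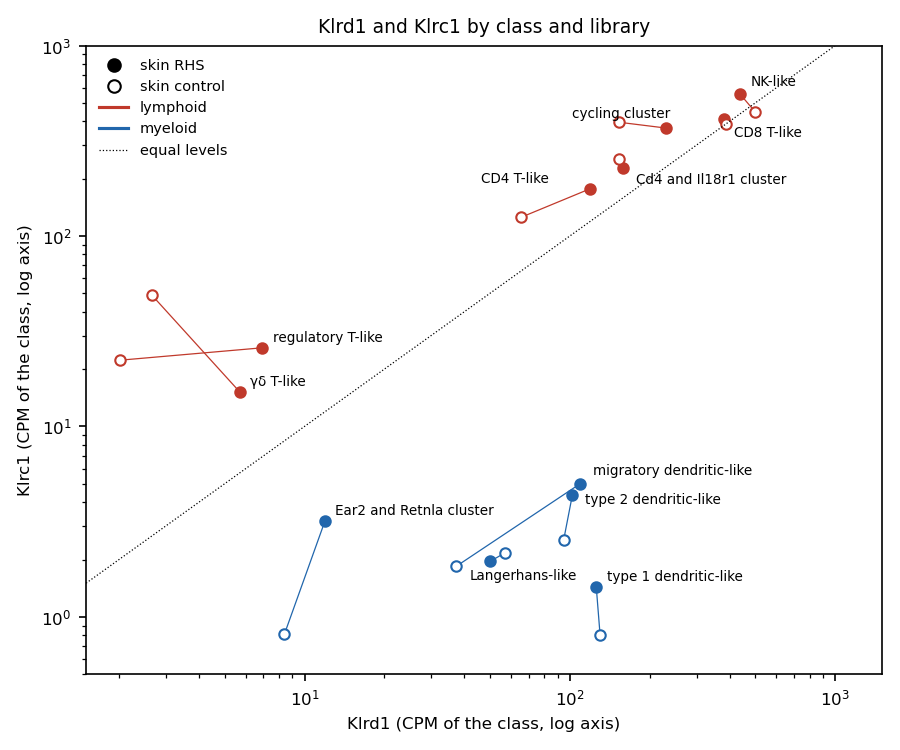
Klrc1 level against Klrd1 level by class and cluster, both as CPM on log axes, with filled points for skin RHS, open points for skin control, a line joining the 2 libraries of a class and a dotted line of equal levels. Lymphoid classes (red) lie near or above the dotted line, and dendritic-like and Langerhans-like classes (blue) lie far under it, with 0.049 Klrc1 counts per Klrd1 count or fewer.

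Counted cell by cell, Klrc1 was found in 55.5% of Klrd1-bearing CD8 T-like cells in skin RHS and in 55.7% in skin control. In the CD8 T-like cells without a Klrd1 UMI it was found in 48.4% and 43.8%. Klrd1-bearing cells were deeper, with a median of 2094 UMIs against 1881 in skin RHS and 2426 against 2111 in skin control, and the part of depth in the difference was not tested. In NK-like cells the share was 55.8% with and 51.9% without a Klrd1 UMI in skin RHS, and 50.4% with and 56.5% without in skin control. In CD4 T-like cells Klrc1 was found in 84.6% of Klrd1-bearing and 9.76% of other cells in skin RHS, and in 54.5% and 9.84% in skin control. The CD8 T cell gene Cd8a was found in 48.7% of those Klrd1-bearing and 4.49% of the other cells in skin RHS, and in 24.2% and 4.15% in skin control, and its part in these values was not tested. Most of these counts came from the cluster led by Tnfsf8, Ccl1 and Penk, where Klrd1 had 108 of its 111 counts in skin RHS and 61 of its 70 in skin control. Of Klrd1-bearing type 2 dendritic-like cells, 2.88% and 2.72% held a Klrc1 UMI. Klrc2 (NKG2C), the activating partner, had 23 and 38 counts in NK-like cells and 72 and 35 counts in CD8 T-like cells, and neither ratio passed 1.5-fold.

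Klrk1 (NKG2D) was counted in NK-like cells at 436 CPM in skin RHS and 526 CPM in skin control, a ratio of 0.83 (0.69 to 0.99). It was also a gene of gamma-delta T-like cells, at 184 and 254 CPM, of CD8 T-like cells, at 172 and 249 CPM, and of ILC2-like cells, at 95.7 and 258 CPM. The ratio was 0.73 (0.57 to 0.91) in gamma-delta T-like, 0.69 (0.59 to 0.80) in CD8 T-like and 0.37 (0.21 to 0.62) in ILC2-like cells. Of the 13 classes and clusters in which Klrk1 had at least 20 counts in the library with the higher level, 11 had a ratio under 1 and 2 had a ratio over 1. The exceptions were CD4 T-like cells, at 1.69, and migratory dendritic-like cells, at 1.28. The median log2 ratio of all genes in those 13 groups lay between -0.09 and 0.07. How many of all genes lay under 1 in as many groups was not counted, and the groups share the same 2 libraries. Within the gamma-delta T-like class, the Klrk1 ratio was 0.90 (0.70 to 1.16) in the larger cluster, led by Cd163l1 and Il17a. It was 0.45 (0.26 to 0.74) in the other cluster. Within the CD8 T-like class, the ratio was 0.59 (0.50 to 0.70) in the largest cluster, led by Ccl5 and Cd8a. It was 1.46 (0.96 to 2.24) in the cluster with Gpr55 and Cd101 and 1.52 (0.69 to 3.8) in the cluster with Gzmk and Cd207. A Klrk1 UMI was found in 24.9% of skin RHS and 37.8% of skin control CD8 T-like cells, or 14.7% and 23.5% after thinning, against 0.70% and 0.56% of keratinocyte-like cells. In CD4 T-like cells the direction turned with the clustering, to 0.61 at a finer resolution and to 0.43 when each library was clustered alone. Type 2 dendritic-like cells had 35.1 and 48.1 CPM, and their ratio of 0.73 (0.56 to 0.94) became 1.01 with each library clustered alone. The adaptor Hcst was found in 55.4% and 58.5% of Klrk1-bearing NK-like cells and in 57.1% of Klrk1-bearing CD8 T-like cells in both libraries. Among cells without a Klrk1 UMI it was found in 38.7% and 54.4% of NK-like and in 56.0% and 50.5% of CD8 T-like cells.

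Klrb1b, an inhibitory NKR-P1 receptor gene, had 924 CPM in skin RHS and 822 CPM in skin control NK-like cells, a ratio of 1.12 (0.99 to 1.28). It was the member with the most UMIs in the myeloid compartment: 80.2% of its UMIs in skin RHS and 79.8% in skin control came from myeloid clusters. Type 2 dendritic-like cells had 284 and 268 CPM, Langerhans-like cells 130.0 and 139.9 CPM, and the cluster led by Ear2 and Retnla 56.8 and 61.3 CPM. The ratios in these 3 groups lay between 0.93 and 1.06 with intervals that include 1. With each library clustered alone the type 2 dendritic-like ratio was 1.73. A Klrb1b UMI was found in 59.3% and 63.1% of type 2 dendritic-like cells, or 24.7% and 21.0% after thinning to 1000 UMIs, against 0.98% and 0.63% of keratinocyte-like cells, or 0.32% and 0.16% thinned. Klrb1c, which encodes the NK1.1 antigen, had 33 and 40 counts in NK-like cells and Klrb1a had 21 and 25. Klrb1f had 12 and 13 counts there. The exons of Klrb1b and Klrb1c overlap those of the same-strand gene Gm44511 in GENCODE, and reads of that gene cannot be told apart from theirs in the overlap.

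Type 1 dendritic-like cells were a mixture, so the Klr levels were read in its subdivisions, which were made after the data had been seen and without Klr genes. The subdivision with Xcr1 and Clec9a, the defining markers of cross-presenting dendritic cells, held 136 skin RHS and 126 skin control cells. There Klrb1b had 594 CPM in skin RHS and 638 CPM in skin control, a ratio of 0.93 (0.82 to 1.06), and was found in 80.1% and 84.1% of cells. Klrd1 was low there, at 25.3 and 41.7 CPM. The subdivision led by Ifitm3, Il7r and Cd7 held 88 and 65 cells and 0 Xcr1 counts, and its pattern was the opposite, with Klrd1 at 451 and 538 CPM and Klrb1b at 176 and 181 CPM. Another set of 8 and 9 cells was led by Siglech, a marker of plasmacytoid dendritic cells, and held 1 and 19 of the 8 and 32 Klra17 counts of the class. Klra17 (Ly49Q) is known as a receptor of plasmacytoid dendritic cells in mice. Here most of its 97 skin RHS and 107 skin control UMIs lay elsewhere. Type 2 dendritic-like cells held 24 and 33 and the Ear2 and Retnla cluster 27 and 14. Its highest level among the compared groups was in neutrophil-like cells. The remainder included 20 and 50 cells led by the B cell genes Cd79a and Ighd.

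Migratory dendritic-like cells, named from Ccr7 and Fscn1, showed the largest ratio among the 32 pairs of a member and a class with at least 100 counts in a library. Klrd1 had 153 counts or 109 CPM in skin RHS and 81 counts or 37.4 CPM in skin control, a ratio of 2.92 (2.22 to 3.88). It was found in 24.2% (19.0 to 30.0) of skin RHS and 15.3% (11.7 to 19.6) of skin control cells, and after thinning to 1000 UMIs in 8.57% and 3.86%. Of the subdivisions, 2 had at least 20 Klrd1 counts in the library with the higher level. The ratio was 2.27 (1.45 to 3.61) in the one led by Mfge8, with a UMI in 30.5% of 105 skin RHS and 18.1% of 127 skin control cells. It was 4.32 (2.78 to 6.85) in the one led by Aldh1a2, where 23.5% of 68 and 16.7% of 108 cells had a UMI, so that few cells carried the 72 skin RHS counts. The one led by Dll4 had 18 and 14 counts. In the Il12b subdivision Klrd1 had 0 counts in skin RHS and 2 in skin control. Of all genes tested in the class, 6.27% were higher in skin RHS by this rule. T cell genes were also counted there, 14 skin RHS and 11 skin control counts of Cd3g and 7 and 4 of Klrc1, and without the 16 cells that carried T cell genes the Klrd1 ratio was 2.95. Klrb1b moved the other way in the same cells, with 11 and 36 counts and a ratio of 0.47 (0.22 to 0.95), and 9.12% of genes were lower there.

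**Figure D3:**
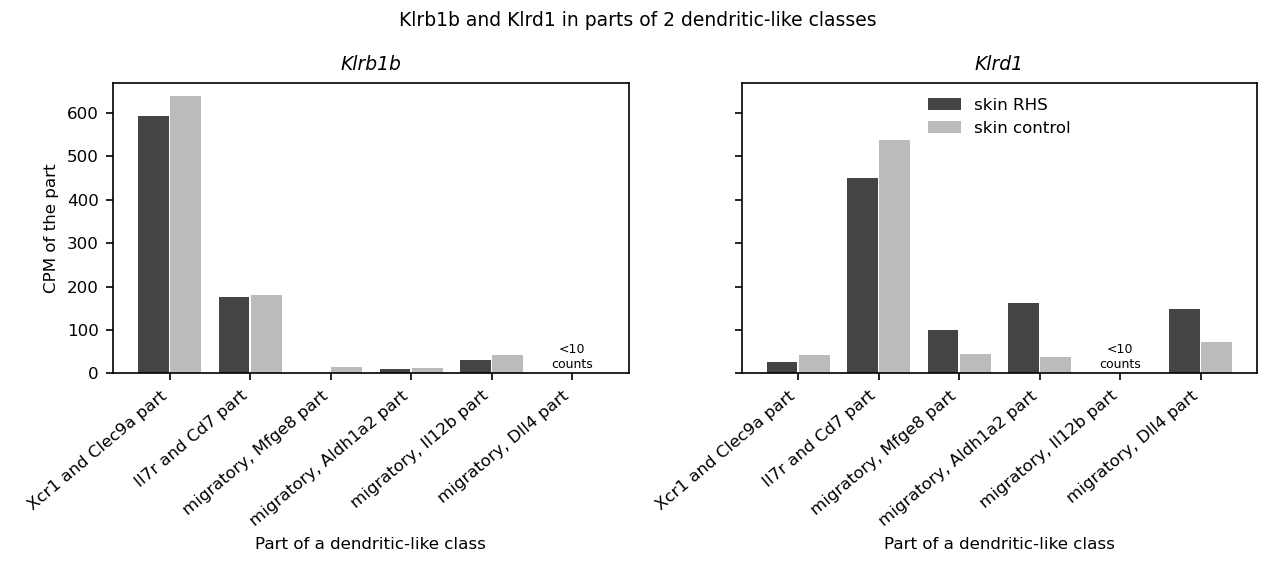
Klrb1b (left) and Klrd1 (right) in the 2 larger subdivisions of type 1 dendritic-like cells and 4 of migratory dendritic-like cells, as CPM of the subdivision, dark bars for skin RHS and light bars for skin control; sums under 10 counts are not drawn. Klrb1b is highest in the Xcr1 and Clec9a subdivision, at 594 and 638 CPM, and Klrd1 in the Il7r and Cd7 subdivision, at 451 and 538 CPM.

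Klrg1, a receptor that marks differentiated T cells and ILC2, lay in regulatory T-like cells with 464 counts or 293 CPM in skin RHS and 640 counts or 324 CPM in skin control. The ratio was 0.90 (0.80 to 1.02). After thinning to 1000 UMIs it was found in 24.9% of skin RHS and 28.0% of skin control regulatory T-like cells, and unthinned in 38.1% and 46.1%, at median depths of 1898.5 and 2185 UMIs. Keratinocyte-like cells gave 0.28% and 0.07%, and 0% in both libraries after thinning. The less cycling cluster of regulatory T-like cells had 438 and 515 CPM, and the cluster with Mki67 and Top2a 161 and 190.1 CPM. In ILC2-like cells Klrg1 had 34 and 24 counts, or 171 and 92.5 CPM, a ratio of 1.85 (1.07 to 3.26). In those same 99 skin RHS and 107 skin control cells Klrk1 had 19 and 67 counts and Klrb1b had 25 and 66, a Klrb1b ratio of 0.50 (0.30 to 0.80). The NK gene Gzmc had 0 and 27 counts in ILC2-like cells and its part in the lower Klrk1 and Klrb1b was not tested. The shares of all genes called in that class were 8.91% higher and 14.3% lower. In NK-like cells Klrg1 had a UMI in 1.15% and 1.01% of cells. Of the Klrg2 UMIs, 32.0% in skin RHS and 48.8% in skin control lay in non-immune clusters. In keratinocyte-like cells Klrg2 had 31 counts or 6.23 CPM in skin RHS and 106 counts or 9.93 CPM in skin control, a ratio of 0.63 (0.41 to 0.94). In that class 18.9% of genes were lower. Its cluster led by Krt16 and Dlx3, with 80 skin RHS and 569 skin control cells, held 1 and 59 of these Klrg2 counts, a ratio of 0.18 (0.0045 to 1.04). The Klrg2 ratio was 0.74 (0.38 to 1.38) in the cluster led by Krt6a and Krtdap. It was 1.12 (0.49 to 2.59) in the one led by Elovl6 and Elovl4. The part of the cluster sizes in the ratio of the class was not tested.

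Klre1 and the Klri members encode receptors that form pairs with each other in NK cells. Klre1 had 164 CPM in skin RHS and 191 CPM in skin control NK-like cells, a ratio of 0.86 (0.63 to 1.15), and Klri2 had 86.4 and 101 CPM, a ratio of 0.85 (0.56 to 1.29). Klri1 differed in its cells, with 97.6% of its 82 skin RHS UMIs and 93.5% of its 108 skin control UMIs in myeloid clusters. Its highest level in the compared classes was in type 2 dendritic-like cells, at 10.1 and 13.02 CPM. Klre1 in CD8 T-like cells was lower, at 16.7 and 26.6 CPM and a ratio of 0.63 (0.39 to 1.03), where 6.12% of all genes were lower, and higher in Langerhans-like cells at 8.80 and 5.53 CPM, where 4.96% of genes were higher. Both intervals include 1.

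Most Klra (Ly49) members had their highest level in NK-like cells. Among these were Klra5, with 17 UMIs in all skin RHS cells and 13 in all skin control cells, and Klra6, with 14 and 12. The NK-like class includes a subdivision with T cell genes, whose Klra values are given apart below. Klra4, Klra8, Klra7 and Klra1 had 132, 145, 151 and 92.8 CPM in skin RHS and 159, 128, 113 and 70.3 CPM in skin control NK-like cells, and no ratio passed 1.5-fold. Klra9 was lower, with 27 counts or 58.3 CPM in skin RHS and 83 counts or 136 CPM in skin control, a ratio of 0.43 (0.27 to 0.67). Klra3 was higher, with 33 counts or 71.2 CPM and 24 counts or 39.2 CPM, a ratio of 1.82 (1.04 to 3.21). In NK-like cells 11.1% of tested genes were lower and 6.61% higher by the same rule, and 1 of 15 tested Klr members was called in each direction. Klra3 and Klra9 share 11.6% and 11.2% of their 75-base words near the transcript end with other members, mostly with Klra10, so reads of these genes may have been counted for each other. A UMI of any of the 9 Klra members other than Klra2 and Klra17 was found in 34.5% (27.5 to 42.1) of skin RHS and 36.7% (30.0 to 43.8) of skin control NK-like cells, or 29.7% and 26.8% after thinning. Up to 5 of these members were found in 1 cell in skin RHS and up to 4 in skin control.

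The NK-like class was divided again without Klr genes, after the data had been seen, and the Ly49 members were spread unevenly over the subdivisions. The Gzma and Eomes subdivision held 41 skin RHS and 34 skin control cells, the Cd3e and Trac subdivision 29 and 44, and the Gzmc subdivisions 104 and 121. Cd3e and Trac are genes of the T cell receptor, and the second subdivision scored higher on the CD8 T markers than on the NK markers, with the gamma-delta genes Trgc2 and Trgc4 among its leading genes. It was kept in the NK-like class, as the clustering placed it there, and its values are given apart. Eomes and Ncr1 were each found in 1.37% of its cells. The NK markers Eomes, Gzma and Prf1 were found in 3.56%, 5.78% and 24.9% of Gzmc cells, against 38.7%, 74.7% and 49.3% of Gzma cells. Ncr1, Tbx21 and Xcl1 were found in 17.3%, 25.3% and 44.9% of Gzmc cells, against 16%, 20% and 22.7%. Itgae, which was not among the NK markers, was found in 75.1% of Gzmc cells, 71.2% of Cd3e cells and 1.33% of Gzma cells. The marker lists held none for innate lymphoid cells other than ILC2, so the name NK-like does not tell such cells apart from NK cells. Gzmc cells were 225 of the 373 NK-like cells, so values of the class are mostly theirs. Klra4 had 624 CPM in skin RHS and 1045 CPM in skin control Gzma cells and 0 counts among Cd3e cells, which allows up to 3 counts. Klra8 had 635 and 711 CPM in Gzma cells and, over both libraries, 45.5 CPM in Cd3e cells. Klra7 and Klra1 were the opposite: in Cd3e cells they had 659 and 533 CPM in skin RHS and 347.5 and 294 CPM in skin control, and over both libraries they had 255 and 70.6 CPM in Gzma cells. Klra6 had 13 counts in Cd3e cells, 2 in Gzma cells and 3 in Gzmc cells over both libraries, so its level in the class came mostly from cells with T cell genes. Any of the 9 Klra members was found in 70.7% of skin RHS and 88.2% of skin control Gzma cells, and in 75.9% and 77.3% of Cd3e cells. In Gzmc cells the shares were 8.65% and 7.44%. After thinning to 1000 UMIs the shares were 60.0% and 75.8% in Gzma cells, 71.4% and 50% in Cd3e cells and 7.84% and 5.04% in Gzmc cells. Over both libraries Klrb1b had 831 CPM in Gzma cells, 227 CPM in Cd3e cells and 1032 CPM in Gzmc cells, and Klrc1 had 413, 193 and 588 CPM in the same order. Both were lowest in Cd3e cells, and the Ly49-bearing Gzma cells held them too. Klrd1 and Klrk1 were more even, between 386 and 579.6 CPM in all 3 subdivisions.

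**Figure D4:**
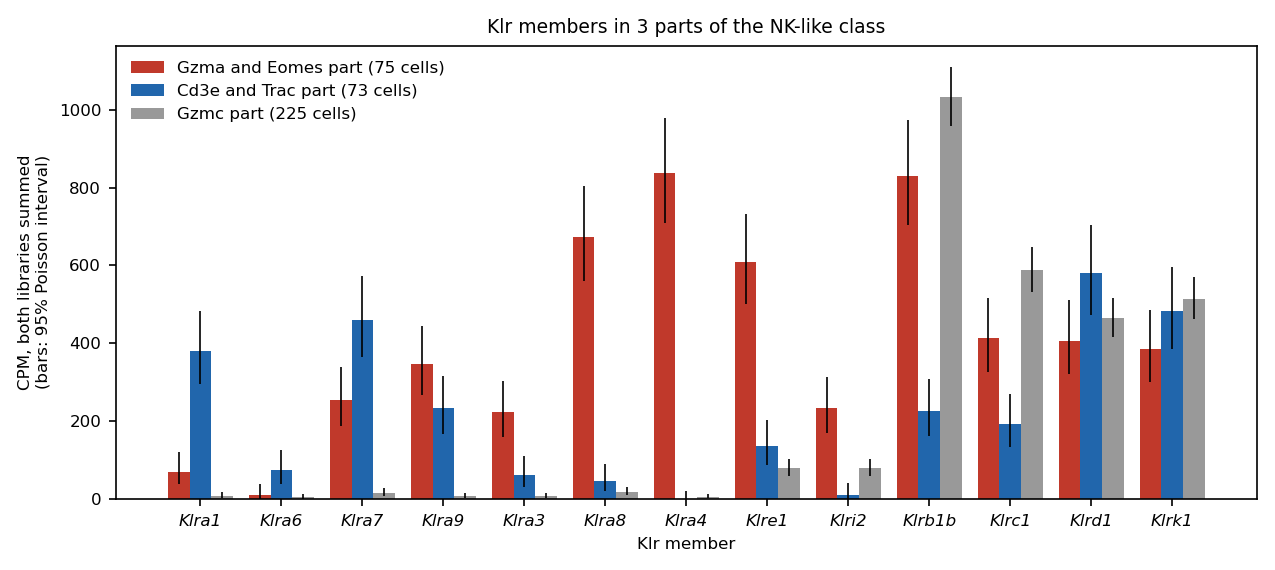
Level of 13 Klr members in 3 subdivisions of NK-like cells, as CPM over both libraries, with bars for the 95% Poisson counting interval; red is the Gzma and Eomes subdivision (75 cells), blue the Cd3e and Trac subdivision (73 cells) and grey the Gzmc subdivisions (225 cells). Klra4 reaches 836 CPM in red and 0 in blue, Klra1 381 CPM in blue and 70.6 CPM in red, and no Klra member passes 18.2 CPM in grey.

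The lower Klra9 was seen in both Ly49-bearing subdivisions. In Gzma cells it had 18 skin RHS and 46 skin control counts and a ratio of 0.40 (0.22 to 0.70), and in Cd3e cells 8 and 33 counts and a ratio of 0.43 (0.17 to 0.94). Klra4 in Gzma cells had 57 and 97 counts and a ratio of 0.60 (0.42 to 0.84). Klra7 in Cd3e cells had 42 and 39 counts and a ratio of 1.90 (1.20 to 3.01), and Klra1 had 34 and 33 counts and a ratio of 1.81 (1.09 to 3.02). Each of these sums comes from under 50 cells a library, so a few cells can carry them. Klre1 in Gzmc cells was at 14 and 43 counts and a ratio of 0.43 (0.22 to 0.80).

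Klra2 was a Ly49 gene of myeloid cells, with 96.6% of its 1050 UMIs in skin RHS and 96.5% of its 774 in skin control in myeloid clusters and 0 counts in NK-like cells. Monocyte-like cells had 367 counts or 162 CPM in skin RHS and 253 counts or 156 CPM in skin control, a ratio of 1.04 (0.88 to 1.22). The share of monocyte-like cells with a UMI was 44.0% and 43.4%, or 12.6% and 14.6% after thinning, against 0.14% and 0.42% of keratinocyte-like cells and 0% of thinned ones. With each library clustered alone the monocyte-like ratio was 1.78. Neutrophil-like cells had 134 and 169.6 CPM and the cluster led by Ear2 and Retnla 36.9 and 26.4 CPM. The cluster of 99 skin RHS and 70 skin control cells led by Syne1, Prg2 and Ccr3, which stayed unnamed, had 277 and 304 CPM from 19 and 16 counts. Basophil-like cells had 18 and 40 counts, or 29.6 and 55.5 CPM, a ratio of 0.53 (0.29 to 0.95), in a class where 10.8% of genes were lower. Klra3 had 71.3% of its 164 skin RHS and 67.1% of its 82 skin control UMIs in myeloid clusters, most of them in macrophage-like cells at 8.64 and 7.41 CPM.

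Over the named classes with at least 50 cells a library, Klr members were higher in skin RHS by at least 1.5-fold in 7 cases and lower in 12, with at least 20 counts in the library with the higher level. The higher cases were Klrd1 and Klrk1 in CD4 T-like, Klrg1 in ILC2-like, Klre1 in Langerhans-like, Klra3 in NK-like and Klrd1 in migratory dendritic-like and monocyte-like cells. The lower cases not yet named were Klrc1 in gamma-delta T-like, Klrk1 in Langerhans-like and macrophage-like, Klra17 in type 1 dendritic-like and Klrg2 in type 2 dendritic-like cells. The shares of all genes that were higher were 6.71% in CD4 T-like and 7.1% in monocyte-like cells. The shares that were lower were 15.8% in gamma-delta T-like, 7.58% in Langerhans-like, 6.05% in macrophage-like, 10.6% in type 1 dendritic-like and 7.42% in type 2 dendritic-like cells. Klrc1 in gamma-delta T-like cells had 8 and 74 counts and a ratio of 0.31 (0.13 to 0.64), and 0.74 when predicted doublets were kept. Klrd1 in monocyte-like cells had 22 and 5 counts and a ratio of 3.15 (1.16 to 10.7), beside 21 and 3 counts of Gzma and 17 and 7 of Cd3g there, and the part of T cell RNA was not tested. Klrc1 in the Ear2 and Retnla cluster had 29 and 6 counts, beside 85 and 17 of Cd3g and 61 and 5 of Gzma. Klrd1 in CD4 T-like cells was at 1.82 (1.33 to 2.49), but at 0.80 with a finer clustering, and 19 of its 39 Klrd1-bearing cells in skin RHS and 8 of 33 in skin control carried Cd8a. In unnamed clusters, Klrc1 and Klra17 were higher and Klrg2 was lower in the Ear2 and Retnla cluster, where 5.9% of genes were higher and 6.31% lower. Klrk1 was lower in the cluster led by Cd4 and Il18r1, where 7.87% were higher and 7.85% lower. In the cycling cluster 4 members were tested and 0 were called, against 8.29% higher and 8.73% lower of all genes.

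For the same call, the other direction was met by 8.33% of genes in CD4 T-like, 7.31% in CD8 T-like and 6.95% in monocyte-like cells. The shares higher in the other classes with a lower member were 6.68% in basophil-like, 8.86% in type 1 dendritic-like, 5.7% in type 2 dendritic-like, 4.2% in gamma-delta T-like, 8.16% in keratinocyte-like and 7.09% in macrophage-like cells. In regulatory T-like cells 2 members were tested and 0 called, with 3.45% of genes higher and 9.58% lower, and in neutrophil-like cells 1 was tested and 0 called, with 14.2% higher and 16.7% lower. No member reached the count minimum in the remaining groups, which enter the gene list totals alone. Among these, 5.96% of genes were higher and 9.06% lower in endothelial-like cells, 15.4% and 8.66% in fibroblast-like, 4.74% and 13.4% in mast-like, 4.83% and 40.2% in melanocyte-like and 12.6% and 7.85% in mural-like cells. In the unnamed cluster led by Slc26a7 and Pappa2 the shares were 6.52% and 14.7%, in the Prg2 and Ccr3 cluster 14.3% and 12.1%, and in the unnamed cluster led by Hhip and Scube3 6.17% and 34.7%. Over the named classes with a tested member, 61 cases were tested, of which 11.5% were higher and 19.7% lower. The shares of all genes in those classes ran between 3.45% and 14.2% higher and between 6.05% and 18.9% lower. The upper ends came from neutrophil-like and keratinocyte-like cells, which had 1 tested member each. No share of all genes weighted by tested members or matched for counts was made, so the range is no direct background for the pooled shares.

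Of the 32 pairs with at least 100 counts in a library, 2 were higher, 1 was lower and 29 lay within 1.5-fold. Shares of all genes were not counted at this minimum, so these numbers do not tell the family apart from other genes.

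**Figure D5:**
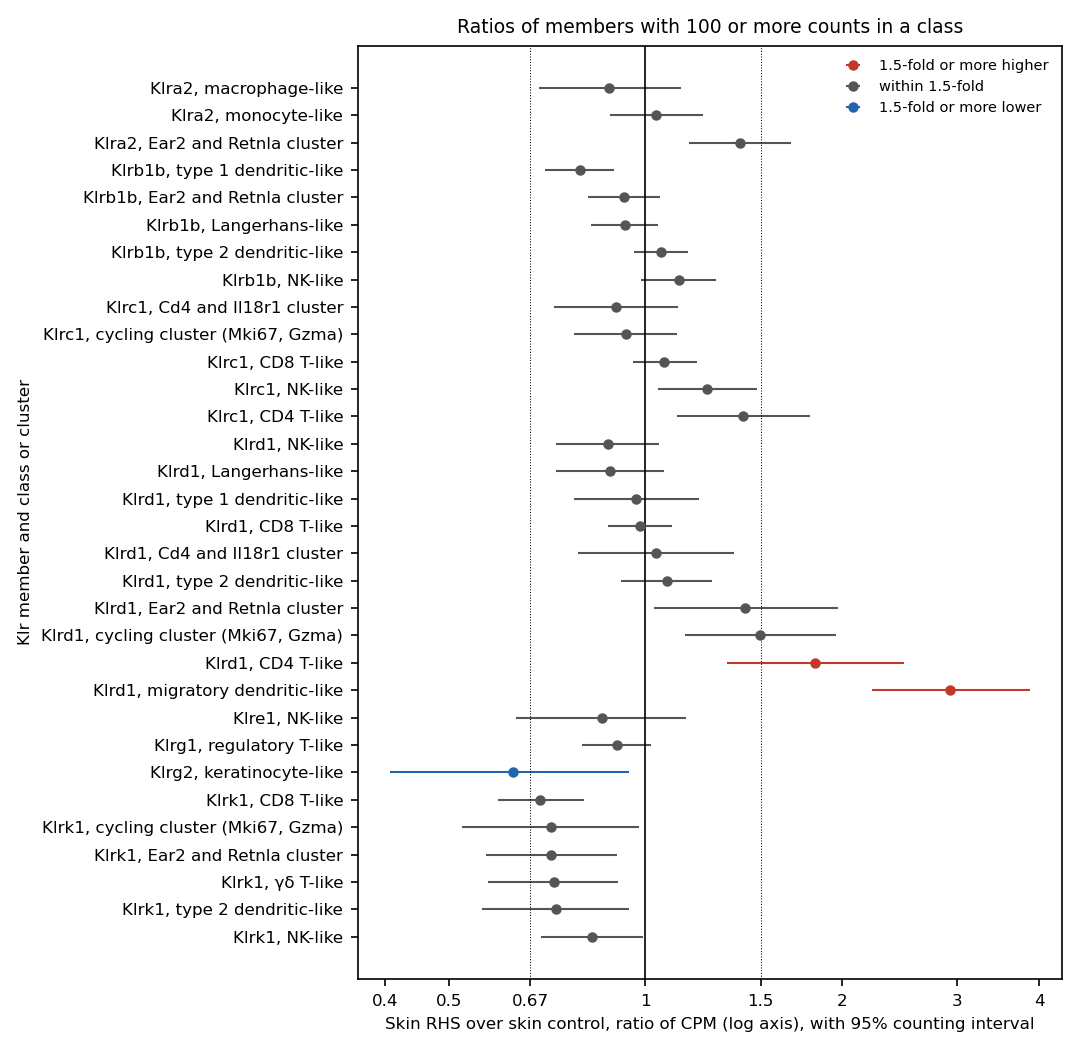
Skin RHS over skin control ratio of CPM for the 32 pairs of a Klr member and a class with at least 100 counts in a library, on a log axis with the 95% counting interval; dotted lines mark 1.5-fold either way. Klrd1 in migratory dendritic-like cells lies farthest right at 2.92, 29 pairs lie within the dotted lines, and all 6 Klrk1 pairs lie left of 1.

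The genes outside the Klr family whose level most resembled that of a member, over 59 sums of a class in a library and as Pearson's r of log2(CPM + 10), are a description of shared cell types. For Klrd1 they were Il12rb2 (0.85), Serpinb9 (0.83), Bend4 (0.81), Cd7 (0.78) and Nkg7 (0.78). For Klrk1 they were Adgrg5 (0.88), Cd96 (0.87), Ctsw (0.87), Cd7 (0.85) and Itgae (0.85). For Klrb1c they were Samd3 (0.94), Eomes (0.92), 1810041H14Rik (0.84), Edaradd (0.84) and Chad (0.81). For Klrg1 they were Myo3b (0.74), Foxp3 (0.74), Cd27 (0.74), Tff1 (0.74) and Il9r (0.74). Within the family, r with Klrd1 was 0.80 for Klrc1 and 0.77 for Klrk1, and r with Klrb1c was 0.91 for both Klra9 and Klra7. The points share libraries and depths.

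Of the signalling genes that Klr receptors use, 11 of 14 had enough counts in NK-like cells, where 0 were higher and 2 were lower. Vav1, an exchange factor downstream of activating NK receptors, had 3 counts in skin RHS and 48 in skin control NK-like cells, a ratio of 0.083 (0.016 to 0.26), and Zap70 had 7 and 22. Vav1 was lower in all 16 classes and clusters where it had enough counts, lymphoid and myeloid, with ratios between 0.083 and 0.54. In CD8 T-like cells it had 53 and 59 counts and a ratio of 0.34 (0.23 to 0.50), while the phosphatase gene Ptpn11 was just past 1.5-fold higher and 11 other members of 13 lay within 1.5-fold. The adaptors Fcer1g, Tyrobp and Hcst had 1492, 909 and 289 CPM in skin RHS NK-like cells and 1332, 930.1 and 307 CPM in skin control.

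Ligand genes lay mostly within 1.5-fold, as most genes did in every group. Of the 10 MHC class I genes listed, 8 were measured in NK-like and in CD8 T-like cells and none passed 1.5-fold, with median log2 ratios of 0.05 and 0.16. H2-T23, which encodes Qa-1, had 99.7 CPM in skin RHS and 72.2 CPM in skin control keratinocyte-like cells, a ratio of 1.38 (1.23 to 1.55), and B2m and H2-Q7 were higher there, at 1.60 and 1.53. H2-Q2 was lower there, with 1 and 35 counts and a ratio of 0.061 (0.0015 to 0.36). Over all classes and clusters, 9 of 186 MHC class I values were higher and 3 lower. In the single groups pooled in this and the other list totals, between 3.45% and 15.4% of all genes were higher. Between 6.05% and 40.2% were lower, and no pooled share of all genes was made. Of the NKG2D ligand genes, 5 of 8 are listed in the files, and Ulbp1 was highest in the cycling cluster, at 189.7 CPM in skin RHS and 121 CPM in skin control, a ratio of 1.57 (1.17 to 2.12). For this list 5 of 24 values were higher and 2 lower. Clec2d, a ligand of NKR-P1 receptors, was lower in 8 of 12 classes and clusters and higher in 0, for instance in type 2 dendritic-like cells with 41 and 98 counts and a ratio of 0.54 (0.36 to 0.78). The NKR-P1 ligand list gave 1 higher and 9 lower of 20 values. Cdh1, the cadherin ligand of KLRG1, was high in basophil-like cells, at 518 and 551 CPM, and in keratinocyte-like cells, at 403 and 412 CPM, and the cadherin list gave 1 higher and 2 lower of 16 values.

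Of the cytotoxic effector values, 38 of 91 lay within 1.5-fold, against 174 of 186 MHC class I values. Over all genes, single groups had between 3.45% and 15.4% higher and between 6.05% and 40.2% lower. In NK-like cells Gzmc had 3907 CPM in skin RHS and 4639 CPM in skin control, Gzma 732 and 749 CPM, and Gzmb was higher with 103 and 52 counts and a ratio of 2.62 (1.86 to 3.73). In CD8 T-like cells Ccl5 had 7279 and 5095 CPM, Gzmc was higher with 93 and 3 counts and Ifng was lower with 77 and 44 counts and a ratio of 0.66 (0.45 to 0.99). Ifng in CD4 T-like cells had 6 counts in skin RHS and 196 in skin control. Over all groups, 39 of 91 effector values were higher and 14 lower, and Ccl5 was higher in 16 of 23, non-immune classes included, beside 1352 CD8 T-like cells in skin RHS and 445 in skin control, whose part in the counts of other classes was not tested. Of the transcription factors of cytotoxic lymphocytes, 8 of 10 were measured in NK-like cells, where Eomes was higher with 29 and 20 counts and a ratio of 1.91 (1.05 to 3.57), and over all groups 18 of 154 values were higher and 15 lower. Of 12 other NK receptor genes, 8 were measured in NK-like cells and none passed 1.5-fold, among them Ncr1 with 27 and 43 counts, and over all groups 15 of 100 values were higher and 9 lower.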

How the data were processed

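Values are counts of unique molecular identifiers per gene and cell, as the authors deposited them for 2 skin libraries, 1 per group, prepared with BD Rhapsody per the labels' protocols. Per the submitters' processing notes, Cell Ranger, R 3.6.0, Seurat 5.1.0 and GRCm39 were used, with no roles given; strand settings were not given in the sources used here. Barcodes under 200 genes or over 20% mitochondrial UMIs were left out. Scrublet called 87 skin RHS (0.652%) and 111 skin control (0.855%) barcodes doublets, which were removed. The 52762576 skin RHS and 55200784 skin control UMIs set the precision. Cells of both libraries were clustered together with scanpy 1.11.5 (2000 variable genes without Klr members, 30 principal components, 15 neighbours, Leiden resolution 1.0, lymphoid cells once more at 1.0, and subdivisions at 0.5) and named from at least 3 markers.

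For each class in each library the counts were added up and scaled by the class total (CPM). Intervals are 95% exact Poisson for levels, exact binomial (Clopper-Pearson) for shares and conditional binomial for ratios. A gene was called higher or lower at a ratio of 1.5 or more either way with at least 20 counts in the library with the higher CPM, in classes of at least 50 cells a library. A count of 0 was set to a floor of 3 counts per library. The calling was run on simulated Poisson counts drawn from the means of a class, with some genes changed. Such counts follow the model of the intervals and hold no variation between cells, mice or libraries. The run thus checks the calculation and cannot show how far calls between single libraries hold. Members with at least 20 counts were given by class and those with at least 100 counts in a class of a library with values of both libraries. Of each gene list, up to 4 by level and those past the call were named, and for 4 members the 5 most similar genes. Pairs and genes outside this rule, the subdivisions, the rule for naming clusters and the promoter run were chosen after their values were seen. The members and gene lists were chosen with earlier results of these data known. All sample columns had a label, and 0 were left unused. The ganglia library was not used here. Promoters are RefSeq windows of GRCm38.p6, used for sequence alone, and motif shares are over windows of the same length.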

Additional observations from a re-analysis of the deposited data

Results flagged for a closer look

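Among named classes, for 2 members the ratio of skin RHS over skin control was past 1.5-fold in one direction in a class and past it in the other direction in another, and the difference between classes was not tested because there was 1 library per group. Klre1 was at 1.59 (0.917 to 2.81) in Langerhans-like cells and at 0.628 (0.388 to 1.03) in CD8 T-like cells, from 36 and 23 counts and from 48 and 29 counts, and both intervals include 1. Klrk1 was at 1.69 (1.14 to 2.54) in CD4 T-like cells, against 0.371 (0.21 to 0.625) in ILC2-like, 0.602 (0.407 to 0.881) in Langerhans-like and 0.401 (0.216 to 0.732) in macrophage-like cells. The CD4 T-like direction of Klrk1 depends on the clustering. With unnamed clusters included, Klrc1 (3.90 in the Ear2 and Retnla cluster, 0.31 in gamma-delta T-like cells) and Klra17 (1.56 in that cluster, 0.22 in type 1 dendritic-like cells) also lay past 1.5-fold in both directions.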

How the results depend on the processing

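No paired analysis was possible because there was 1 library per group, and no replicate could be left out. Over named classes, 7 higher and 12 lower members became 2 and 1 with a minimum of 100 counts, 29 and 37 with 5, and 2 and 7 at a fold of 2. Shares of all genes were counted under the main settings alone. The member counts under these and the other settings therefore have no background and do not tell the family apart from other genes. With each library clustered alone 9 were higher and 21 lower, which shared 3 of the 7 higher and 8 of the 12 lower calls, and with at least 500 genes a cell 4 were higher, all among the 7. Reversed values were Klrd1 in CD4 T-like cells, at 0.8031 with resolution 2, 0.3108 with libraries clustered alone, 0.6651 with at least 500 genes and 0.7325 with at most 10% mitochondrial UMIs, and Klrk1 there, at 0.6124, 0.4328, 0.6214 and 0.6141 under the same settings. Klrg2 in type 2 dendritic-like cells reached 1.28 after the keratinocyte-like level was subtracted, which also moved the lymphoid share of Klr UMIs to 57.01% in skin RHS and 53.05% in skin control. The share of NK-like cells with a Klra UMI was 21.82% in skin RHS and 15.98% in skin control with at least 2 UMIs, and in skin control 36.68% unthinned and 34.12% thinned to 2000 UMIs. The cause of these moves was not tested. Klrd1 in migratory dendritic-like cells stayed between 2.495 and 3.013 under every alternative that gave a value. Of all alternative values of member ratios, 581 stayed within the counting interval of the main ratio, 23 moved by more and 9 reversed. The 581 include 39 each from the minimum of 100 counts, the minimum of 5 counts and the fold of 2. Those settings change only the call and cannot move a ratio. Settings that drop cells of a single class leave the ratios of other classes as they were. A reversal was scored only for called pairs, so these counts are no measure of stability. With resolution 0.5 and with at least 500 genes no type 1 dendritic-like class was named, and with libraries clustered alone no Langerhans-like class. Protein sequence features were not run. Members under 20 counts in a class were not read for a difference at this depth.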
